A study of Mus musculus with 8 samples.

Results

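The genes of voltage-gated calcium and sodium channels were examined in olfactory mucosa, the tissue that holds olfactory sensory neurons (OSNs). They were chosen by symbol: every gene whose symbol begins with Cacna, Cacnb or Cacng, or is Scn followed by a digit and then a or b. Of 40 such genes in the RefSeq table, 35 had a transcript cluster that names no other gene, out of 19928 genes tested in all. The other 5 were not analysed here. The 35 members fell into 8 subunit classes: 4 L-type, 3 P/Q-, N- and R-type and 3 T-type alpha1 subunits, 4 alpha2delta subunits, 3 calcium channel beta and 7 gamma subunits, 8 sodium channel alpha subunits and 3 sodium channel beta subunits.

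Total RNA of 8 mice at postnatal day 3, on a mixed 129 x C57BL/6J background, was measured with 1 array per mouse. The 4 conditional knockouts (cKO) were 123Cre:Lhx2fl/fl. Of the 4 littermate controls, numbers 1 and 2 were Lhx2fl/+ and numbers 3 and 4 were 123Cre:Lhx2fl/+, so that every mouse carried a floxed Lhx2 allele and some controls carried the Cre transgene. 123Cre acts from the immature OSN stage onward and removes the first exons of Lhx2, which encodes a LIM-homeodomain transcription factor, in only part of the OSNs. Array values were log2 values, medians lay between 8.82 and 8.89, and the number of arrays limits the precision of each value.

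Voltage-gated sodium channels open on depolarization and carry the upstroke of the action potential, and voltage-gated calcium channels turn the action potential into calcium entry, at axon terminals above all. The alpha1 subunit of a calcium channel and the alpha subunit of a sodium channel form the pore. The remaining subunits do not conduct. The alpha2delta and beta subunits set how many channels reach the membrane and how these gate. Gamma subunits of the TARP family are best known for assisting AMPA-type glutamate receptors. In OSNs the odorant response of the cilia is turned into spikes by such channels, and in mice the sodium channel of Scn9a is required for transmission from OSN axons to the olfactory bulb.

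The sequences shown are the RefSeq promoter windows (build GRCm38.p6, 250 bases before to 50 after an annotated transcript start) of the member that passed the test, Cacng5, and of 3 sodium channel genes with large differences, Scn9a, Scn4b and Scn2b. The windows lie at chr11:107915006-107915305 (minus strand) for Cacng5, chr2:66634913-66635212 (minus strand) for Scn9a, chr9:45138374-45138673 (plus strand) for Scn4b and chr9:45117626-45117925 (plus strand) for Scn2b. Capitals mark a match to CCCNNGGG, a core of the sites bound by Ebf factors, which work with homeodomain proteins at odorant receptor genes. No window shown held TAATTA, a core of LIM-homeodomain sites. Each motif equals its own reverse complement, so both strands were searched at once, and the motifs do not overlap one another.
Cacng5: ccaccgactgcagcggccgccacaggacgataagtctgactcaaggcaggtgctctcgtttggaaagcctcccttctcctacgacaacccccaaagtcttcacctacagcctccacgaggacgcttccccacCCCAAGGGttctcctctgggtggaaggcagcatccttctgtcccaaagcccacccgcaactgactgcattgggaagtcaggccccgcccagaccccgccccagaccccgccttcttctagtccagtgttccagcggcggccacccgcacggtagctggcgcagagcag
Scn9a: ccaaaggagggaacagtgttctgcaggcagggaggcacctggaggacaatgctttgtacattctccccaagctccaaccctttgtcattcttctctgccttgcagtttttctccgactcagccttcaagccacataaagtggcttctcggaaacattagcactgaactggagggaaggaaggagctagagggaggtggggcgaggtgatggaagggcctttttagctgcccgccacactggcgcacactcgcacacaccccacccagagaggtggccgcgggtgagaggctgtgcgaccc
Scn4b: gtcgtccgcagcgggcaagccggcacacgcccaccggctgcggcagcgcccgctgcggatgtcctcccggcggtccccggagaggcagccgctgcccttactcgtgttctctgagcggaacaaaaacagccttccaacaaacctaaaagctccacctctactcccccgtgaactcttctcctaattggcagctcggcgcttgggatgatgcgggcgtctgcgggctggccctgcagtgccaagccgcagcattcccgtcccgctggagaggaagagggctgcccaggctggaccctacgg
Scn2b: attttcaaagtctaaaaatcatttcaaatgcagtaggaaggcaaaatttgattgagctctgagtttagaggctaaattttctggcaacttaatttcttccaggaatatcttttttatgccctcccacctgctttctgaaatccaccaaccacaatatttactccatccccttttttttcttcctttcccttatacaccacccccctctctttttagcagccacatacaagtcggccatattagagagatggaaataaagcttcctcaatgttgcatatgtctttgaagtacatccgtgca

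Windows were found for 27 of the 35 members, 37 windows in all. TAATTA was in 0 of the 37 and in 5.29% of all 32851 windows. CCCNNGGG was in 7 of the 37 (18.9%) and in 13.7% of all windows. The match in the Cacng5 window began at position -118 from the transcript start, and another annotated Cacng5 start had no match. GC content was 63.3% for Cacng5, 57.3% for Scn9a, 66.3% for Scn4b and 38.3% for Scn2b. A match is a run of letters and was not tested as a binding site.

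Each member was compared between cKO and control arrays by limma, fitted on all 19928 genes with Benjamini-Hochberg adjustment, and a gene passed at an adjusted p under 0.01. By this test 1 member rose, Cacng5, where 0.0602% of all genes rose, and 0 of 35 fell, where 2.07% of all genes fell. At the looser adjusted p under 0.05, 4 members were lower (11.4%, against 5.17% of all genes): Scn9a, Cacna2d1, Cacna1h and Scn4b. Cacng5 remained the 1 member higher at that level, against 0.366% of all genes. At an unadjusted p under 0.05, 8 members were lower, where 9.87% of all genes were, and 4 higher, where 5.13% were. The methods' t-test, run here without the study's normalization to mature OSN number, gave 0 members past 0.01 after adjustment. Differences were below 0 for 17 members and above 0 for 18, where 37.7% of all genes were below 0. The median of the member differences was 0.006, beside 0.026 over all genes.

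In 6 members all cKO arrays lay below all control arrays (17.1%, against 8.43% of all genes): Cacna1b, Cacna1h, Cacna2d1, Cacng4, Scn9a and Scn4b. In 3 members they lay above them (8.57%, against 3.18% of all genes): Cacna2d4, Cacng5 and Scn2b. In the other 26 members the groups overlapped.

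**Figure D1:**
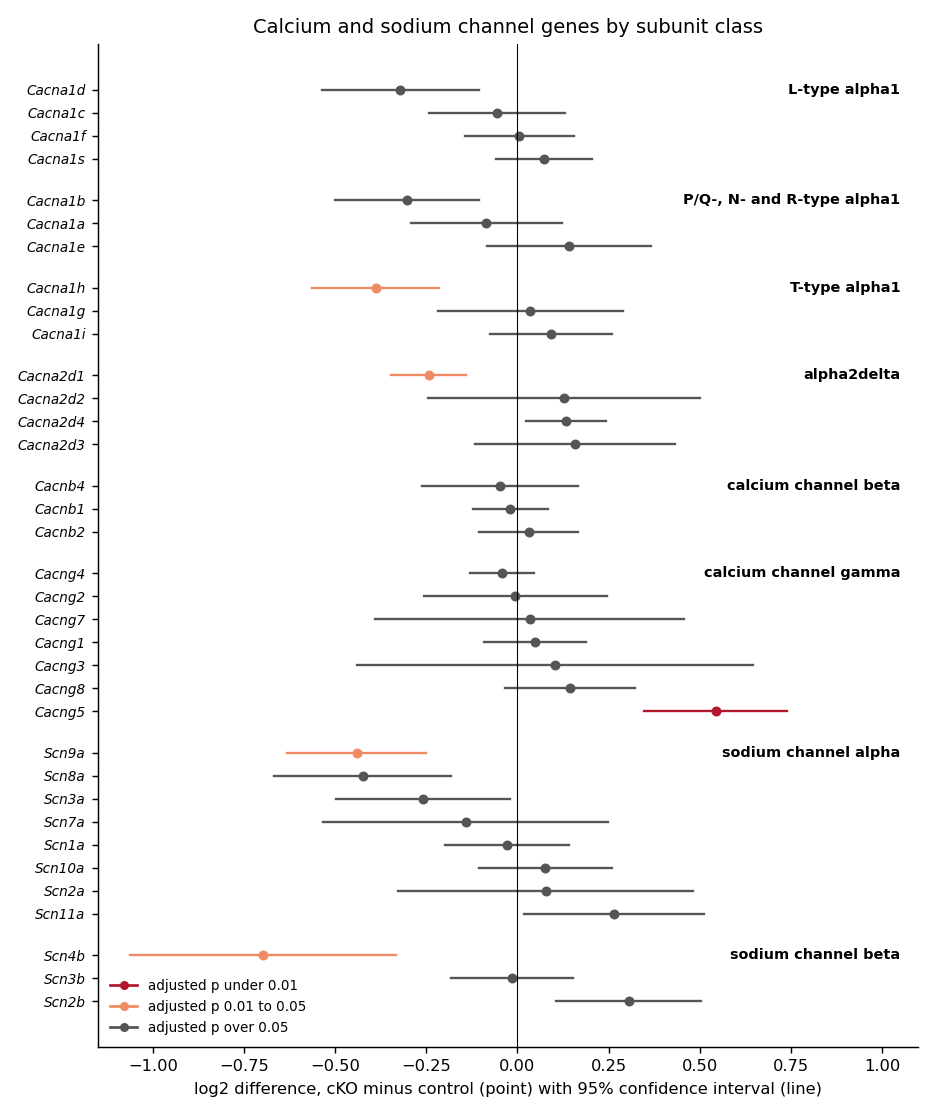
Points give the cKO minus control log2 difference of each of 35 channel genes and lines its 95% confidence interval by limma, grouped by subunit class. Cacng5 stands alone in red at 0.54, the 4 orange genes with an adjusted p of 0.01 to 0.05 (Cacna1h, Cacna2d1, Scn9a and Scn4b) lie between -0.70 and -0.24, and each class holds genes on both sides of 0.

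Lhx2 itself read 13.03, 12.55, 13.01 and 13.02 in cKO mice 1 to 4 and 13.14, 13.09, 13.20 and 13.13 in controls 1 to 4 (difference -0.24, SE 0.11, adjusted p = 0.337). The arrays did not overlap, and cKO 2 lay far below the other cKO arrays. Without cKO 2 the difference was -0.12 (adjusted p = 0.293 by limma). The cluster joins all exons, also those left after the deletion, so its level alone does not check the deletion. The mucosa also contains many cells other than OSNs, so marker lists were read on the same arrays. Omp, the marker protein of mature OSNs, read 12.68, 11.997, 12.62 and 12.59 in cKO mice 1 to 4 and 13.40, 13.39, 13.49 and 13.47 in controls 1 to 4, and fell (-0.97, adjusted p = 0.00605 by limma). Of 22 mature OSN markers 7 fell and 0 rose, where 2.07% and 0.0602% of all genes did. The mean of these markers per array was 11.40 ± 0.29 in cKO mice and 12.09 ± 0.04 in controls (SD, n = 4 each). Mouse cKO 2 had the lowest mean, 10.97 against 11.51 to 11.60 in the other cKO mice, and was also the lowest in Lhx2. The study reported only a small decrease over its own, longer list of mature OSN mRNAs. Of 19 immature OSN markers 1 fell, Stmn4, a stathmin that binds tubulin (-0.30, adjusted p = 0.00447), and their mean differed by -0.06. Gap43, a growth cone protein, differed by -0.29 (adjusted p = 0.268), and by -0.16 without cKO 2. In bulk tissue, fewer cells of a type and less RNA per cell cannot be told apart.

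Cacng5 encodes a gamma subunit of the TARP family, proteins best known for assisting AMPA-type glutamate receptors. Cacng5 read 8.12, 8.05, 8.06 and 8.27 in cKO mice 1 to 4 and 7.35, 7.61, 7.73 and 7.63 in controls 1 to 4. Every cKO array lay above every control array, cKO 4 was the highest of all and control 1 was the lowest. The difference was 0.54 (SE 0.09, 95% confidence interval 0.35 to 0.74, adjusted p = 0.0082 by limma), or 146% of the control level. It was 0.64 against Lhx2fl/+ controls alone (adjusted p = 0.0533) and 0.45 against 123Cre:Lhx2fl/+ controls alone (adjusted p = 0.067), both by limma. Without cKO 4 the difference was 0.497.

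Sample titles start with A or B, a letter that no source used here explains. Letter A is carried by cKO 1, 3 and 4 and controls 3 and 4, letter B by cKO 2 and controls 1 and 2, so that letter and genotype cannot be told apart among the controls. Cacng5 differed by 0.47 within letter A and by 0.57 within letter B, and by 0.51 with the letter as a block (adjusted p = 0.00751 by limma). The methods' t-test gave an adjusted p of 0.0624. The call was lost when any 1 of 7 of the arrays was left out: by limma the adjusted p was 0.019, 0.0221 and 0.0245 without cKO 1, 3 and 4 and 0.0182, 0.0247, 0.0157 and 0.0266 without controls 1 to 4, while without cKO 2 it was 0.00937. It was 0.0126 when arrays were centred on the genes that encode no chemoreceptor.

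Of the other 6 gamma subunits 0 passed by limma, and the number with an unadjusted p under 0.05 was also 0. Cacng4, another TARP gene, read 11.004 to 11.07 in cKO mice and 11.07 to 11.10 in controls. Its arrays did not overlap, but the difference was -0.04 (95% confidence interval -0.13 to 0.04). Cacng8 differed by 0.14 (adjusted p = 0.46 by limma), Cacng3 by 0.10, Cacng1, the gamma subunit of skeletal muscle, by 0.05, Cacng7 by 0.03 and Cacng2, or stargazin, by -0.01. Without cKO 4 the differences were 0.075 for Cacng8, -0.13 for Cacng3, -0.07 for Cacng7 and -0.12 for Cacng2. The class mean per array was 8.57 ± 0.18 in cKO mice and 8.45 ± 0.12 in controls (SD, n = 4 each).

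Cacng1, Cacng4 and Cacng5 follow one another on chromosome 11 in the RefSeq table with no other protein-coding gene between them, and 8 such pairs of adjacent members were compared by their difference within each array. The Cacng4 difference minus the Cacng5 difference was -0.59 (exact permutation test, two-sided, p = 0.0286, the smallest that 70 arrangements allow, 0.114 after adjustment over the 8 pairs). All cKO arrays lay below all control arrays for Cacng4 and above them for Cacng5. That alone makes this p the smallest possible, so it adds nothing beyond the lack of overlap. The Cacng1 difference minus the Cacng4 difference was 0.09 (exact p = 0.2, adjusted p = 0.305). Apart from these and the pair of Scn2b and Scn4b, the lowest exact p was 0.0857 (adjusted p = 0.229), for Scn1a and Scn9a.

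**Figure D2:**
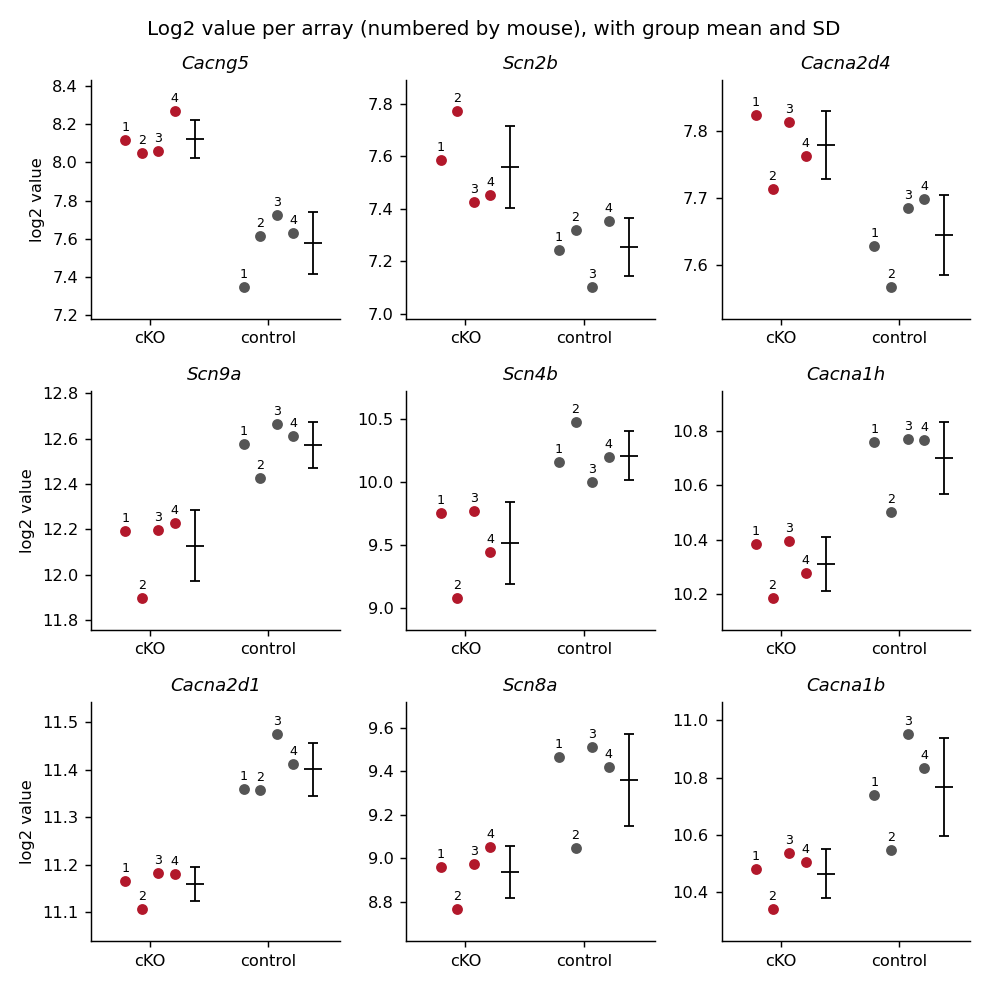
Log2 values per array are shown for 9 channel genes, with numbered points for the 4 cKO mice (red, left) and the 4 controls (grey, right) and bars for mean and SD. Points of Cacng5, Scn2b and Cacna2d4 lie higher in cKO mice, those of the other genes lie lower, and control 2 is the lowest control of Scn9a, Cacna1h, Scn8a and Cacna1b.

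Among the sodium channel alpha subunits the differences ran from -0.44 to 0.26, and 0 of 8 passed by limma, with 3 lower and 1 higher at an unadjusted p under 0.05. Scn9a read 12.19, 11.90, 12.20 and 12.23 in cKO mice 1 to 4 and 12.58, 12.43, 12.67 and 12.61 in controls 1 to 4. The groups did not overlap, and cKO 2 was the lowest. The difference was -0.44 (SE 0.08, 95% confidence interval -0.63 to -0.25, adjusted p = 0.0181), or 73.7% of control. With 1 array left out in turn it ran from -0.49 to -0.36, and adjusted p by limma from 0.0112 to 0.0595. Another cluster that names only Scn9a read 11.25 to 11.60 in cKO mice and 11.81 to 12.03 in controls, a difference of -0.51 (adjusted p = 0.0109 by limma over all 23364 clusters that name a gene). With the mean of both clusters Scn9a passed (-0.47, adjusted p = 0.00901 by limma).

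Scn8a, the sodium channel of nodes and axon initial segments, read 8.96, 8.77, 8.97 and 9.05 in cKO mice 1 to 4 and 9.46, 9.05, 9.51 and 9.42 in controls 1 to 4. Control 2 lay at the level of cKO 4, so the groups overlapped, and the difference was -0.42 (SE 0.11, adjusted p = 0.0576). Without control 2 it was -0.53 (adjusted p = 0.0135 by limma). Scn3a, a sodium channel of developing neurons, read 9.08, 9.11, 9.15 and 9.17 in cKO mice and 9.41, 9.05, 9.60 and 9.48 in controls. Here too control 2 was apart from the other controls, below every cKO array, and the difference was -0.26 (adjusted p = 0.281), against -0.41 within letter A and -0.12 within letter B.

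The channels best known from other cells gave a mixed picture. Scn11a, a sodium channel of pain-sensing neurons, differed by 0.26 (95% confidence interval 0.02 to 0.51, adjusted p = 0.289), with cKO arrays at 6.93 to 7.43 and control arrays at 6.77 to 6.99. Scn10a, also of pain-sensing neurons, differed by 0.08. Scn7a, a sodium-sensing channel of glia, differed by -0.14, with an interval from -0.53 to 0.25, while Scn1a differed by -0.03 and Scn2a by 0.08, or -0.10 without cKO 4.

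The sodium channel beta subunits, single-pass proteins that also act in cell adhesion, differed most from one another. Scn4b, whose protein promotes resurgent sodium current, read 9.75, 9.08, 9.77 and 9.45 in cKO mice 1 to 4 and 10.16, 10.47, 10.003 and 10.20 in controls 1 to 4. The groups did not overlap, and cKO 2 was again lowest. The difference was -0.70 (SE 0.16, 95% confidence interval -1.06 to -0.33, adjusted p = 0.0402), or 61.6% of control. It was -0.44 within letter A and -1.24 within letter B, where the only cKO array is cKO 2, and -0.55 without cKO 2 (adjusted p = 0.0368 by limma). With 1 array left out in turn, adjusted p by limma for Scn4b ran from 0.0368 to 0.104.

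Scn2b, one of the 11 members with a mean under the lower quartile of all genes (log2 7.52), went the other way. It read 7.59, 7.77, 7.43 and 7.45 in cKO mice 1 to 4 and 7.24, 7.32, 7.10 and 7.35 in controls 1 to 4, without overlap. The difference was 0.31 (SE 0.09, 95% confidence interval 0.11 to 0.50) and did not pass (adjusted p = 0.0963). Array cKO 2, the lowest of Scn4b, was the highest of Scn2b. The genes are adjacent on chromosome 9, and the Scn2b difference minus the Scn4b difference was 1.004 (exact p = 0.0286, the smallest possible, adjusted p = 0.114 over 8 pairs). Here too the lack of overlap in opposite directions fixed this p in advance, so it adds nothing to it. Scn3b differed by -0.02, with cKO arrays at 11.66 to 11.87 and control arrays at 11.67 to 11.93.

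Of the 10 calcium channel alpha1 genes 0 passed by limma, with 3 lower and 0 higher at an unadjusted p under 0.05. At that level 9.87% of all genes were lower and 5.13% higher. Each alpha1 class held 1 of the 3 lower genes. Cacna1h, the T-type channel that opens near resting potential, read 10.38, 10.19, 10.40 and 10.28 in cKO mice 1 to 4 and 10.76, 10.50, 10.77 and 10.77 in controls 1 to 4. The groups did not overlap, and control 2 stood closest to the cKO arrays. The difference was -0.39 (SE 0.08, 95% confidence interval -0.56 to -0.21, adjusted p = 0.0203), or 76.4% of control. Over the sets of 7 arrays with 1 left out, adjusted p by limma ran from 0.0134 to 0.0692 for Cacna1h. The other T-type genes, Cacna1i and Cacna1g, differed by 0.09 and 0.04.

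Cacna1b, the N-type channel of presynaptic terminals, read 10.48, 10.34, 10.54 and 10.51 in cKO mice 1 to 4 and 10.74, 10.55, 10.95 and 10.83 in controls 1 to 4. The gap between the groups was narrow, with cKO 3 just under control 2, and the difference was -0.30 (SE 0.09, adjusted p = 0.0968). Its difference was -0.43 against 123Cre:Lhx2fl/+ controls and -0.18 against Lhx2fl/+ controls. Cacna1a, the P/Q-type channel, differed by -0.08 (95% confidence interval -0.29 to 0.12) and Cacna1e, the R-type channel, by 0.14 (-0.08 to 0.37). The Cacna1e difference was 0.038 without control 2 and 0.027 against 123Cre:Lhx2fl/+ controls alone.

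Cacna1d, an L-type channel that opens at lower voltage than most of its class, read 10.17, 10.04, 10.16 and 10.17 in cKO mice 1 to 4 and 10.57, 10.17, 10.62 and 10.45 in controls 1 to 4. Control 2 again lay at the cKO level, and the difference was -0.32 (SE 0.09, adjusted p = 0.107). Cacna1c, the L-type channel of heart and smooth muscle, differed by -0.06. Cacna1s, the voltage sensor of skeletal muscle, differed by 0.07 and Cacna1f, a channel of photoreceptors, by 0.01. The 16 skeletal muscle markers averaged 7.69 ± 0.06 in cKO mice and 7.59 ± 0.10 in controls (SD, n = 4 each).

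Of the 4 alpha2delta subunits 1 was lower and 1 higher at an unadjusted p under 0.05 by limma. Over all genes 9.87% were lower and 5.13% higher at that level. Cacna2d1, an alpha2delta protein that binds gabapentin and brings channels to terminals, read 11.17, 11.11, 11.18 and 11.18 in cKO mice 1 to 4 and 11.36, 11.36, 11.48 and 11.41 in controls 1 to 4. The groups were clearly separate, and the difference was -0.24 (SE 0.045, 95% confidence interval -0.35 to -0.14, adjusted p = 0.0159), or 84.5% of control. Its other cluster gave -0.28 (adjusted p = 0.0545 by limma over the 23364 clusters). Cacna2d4, known from the retina, read 7.71 to 7.82 in cKO mice and 7.57 to 7.70 in controls (difference 0.13, adjusted p = 0.208). Cacna2d3 and Cacna2d2 differed by 0.16 and 0.13, and without cKO 4 by 0.026 and -0.01.

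The beta subunits, which bind alpha1 inside the cell and release it to the membrane, gave the narrowest range. Cacnb2 differed by 0.03 (95% confidence interval -0.10 to 0.17), Cacnb1 by -0.02 (-0.12 to 0.08) and Cacnb4 by -0.05 (-0.26 to 0.17). The number of these 3 genes with an unadjusted p under 0.05 was 0 by limma and 0 by the methods' t-test, and the intervals bound the changes that 4 arrays a group leave possible.

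Per array, class means differed by -0.08 for L-type, -0.08 for P/Q-, N- and R-type and -0.09 for T-type alpha1 subunits, and by 0.04 for alpha2delta, -0.01 for beta and 0.12 for gamma subunits. They differed by -0.11 for sodium channel alpha and -0.14 for sodium channel beta subunits. Each of the 8 classes held members below 0 and members above 0, and in each class mean the cKO and control arrays overlapped.

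With the title letter as a block, Scn9a (-0.49, adjusted p = 0.003), Cacna1h (-0.43, adjusted p = 0.00783) and Cacna2d1 (-0.26, adjusted p = 0.00783) passed the threshold by limma. How many of all genes passed in this fit is not given here. With the letter as a random block 0 members passed as lower, and adjusted p was 0.0216 for Scn9a, 0.0234 for Cacna1h and 0.018 for Cacna2d1. Within letter A the differences were -0.43 for Scn9a, -0.41 for Cacna1h and -0.27 for Cacna2d1, and within letter B they were -0.61, -0.45 and -0.25 in the same order. In the 7 members that were lower at an unadjusted p under 0.01 (these 3, Scn4b, Scn8a, Cacna1b and Cacna1d), cKO 2 was the lowest of the 8 arrays, as it was for the mean of the mature OSN markers. These 7 were picked for being lower in cKO mice, so that a cKO array was likely to be lowest. Over all 35 members cKO 2 was lowest in 10 and highest in 3, where over all genes it was lowest in 14.8% and highest in 19.5%. The part of the mature OSN markers in these differences was not tested.

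**Figure D3:**
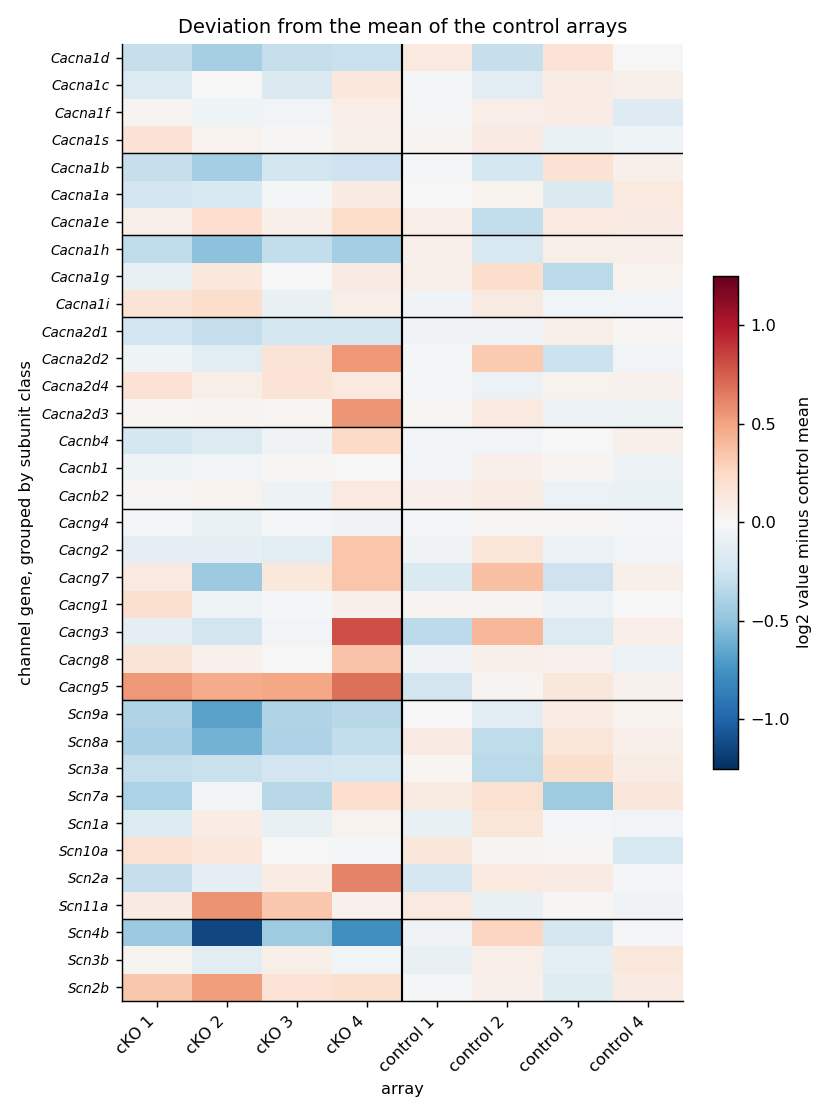
Each cell gives the log2 value of a channel gene (rows, grouped by subunit class) on an array (columns, 4 cKO then 4 control), minus the mean of the control arrays. Blue rows in all cKO columns mark Scn9a, Scn8a, Scn3a, Scn4b, Cacna1h, Cacna1b, Cacna1d and Cacna2d1, the row of Cacng5 is red, and cKO 4 is red for Cacng3, Cacna2d3, Scn2a and Cacna2d2.

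Mouse cKO 4 stood apart in another set of members, which was seen only after the values had been examined. It was the highest of the 8 arrays in 12 of 35 members, against 8.68% of all genes, and the lowest in 0, against 9.72% of all genes. Cacng3 read 7.14 in cKO 4 and 6.00 to 6.75 on the other arrays. Cacna2d3 read 7.52 in cKO 4 and 6.89 to 7.09 elsewhere, and Cacna2d2 read 8.12 in cKO 4 and 7.31 to 7.90 elsewhere. Brain neurons express these genes strongly. The others of the 12 were Scn2a, Cacna1c, Cacna1e, Cacnb2, Cacnb4, Cacng2, Cacng5, Cacng8 and Scn7a. Of these, Cacna1c is best known from heart and smooth muscle and Scn7a from glia.

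Scn2a, the main sodium channel of immature and unmyelinated axons in brain, is covered by 14 clusters that name no other gene, and cKO 4 was the highest array in all 14. Their mean was 7.82, 7.94, 8.04 and 8.51 in cKO mice 1 to 4 and 7.96, 8.05, 8.12 and 8.06 in controls 1 to 4. The mean differed by 0.03, and by -0.11 without cKO 4. By single cluster the difference ran from -0.15 to 0.21, above 0 in 8 and below 0 in 6, and 0 of the 14 passed by limma, with the lowest unadjusted p at 0.301.

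Some lists of neuronal genes were also highest in cKO 4. Mature and immature OSN markers were not: they averaged 11.51 and 11.83 in cKO 4, and up to 12.13 and 11.90 in controls. The 6 AMPA receptor genes, the partners of TARP gamma subunits, averaged 9.02 in cKO 4 against 8.03 to 8.40 in the other cKO mice and 8.10 to 8.36 in controls. A list of 13 brain neuron markers, added after cKO 4 had been seen, averaged 8.61 in cKO 4, 8.13 to 8.22 in the other cKO mice and 8.17 to 8.25 in controls. Within these lists Gria3, Cnih2 and Sp8 were highest in cKO 2 and Camk2a in control 3, the rest in cKO 4. Without cKO 4, 22 members were below 0 and 13 above it, where 37.1% of all genes were below 0. At an adjusted p under 0.05 by limma 2 members were then lower, where 3.69% of all genes were, and 1 higher, where 0.266% were. The class mean of gamma subunits then differed by 0.04 and that of alpha2delta subunits by -0.02. The part of the brain neuron markers in these values was not tested.

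**Figure D4:**
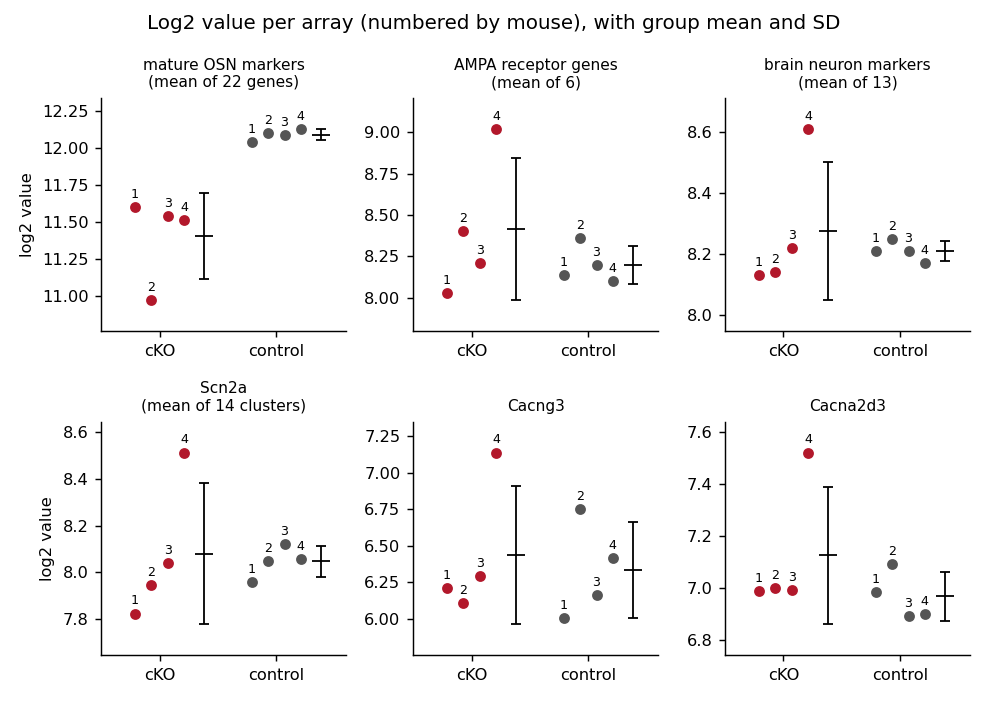
Log2 values per array, numbered by mouse, are shown for cKO mice (red, left) and controls (grey, right) with bars for mean and SD, for the means of 3 gene lists and of the Scn2a clusters and for Cacng3 and Cacna2d3. Mouse cKO 2 is the lowest of the mature OSN markers at 10.97, and cKO 4 is the highest point of the other 5 panels, for example 9.02 for AMPA receptor genes and 7.14 for Cacng3.

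Partner genes of the channels were read from lists written down by function. Of 11 sodium channel partners, 1 fell and 0 rose: Fgf12, an intracellular FGF that binds the tail of sodium channel alpha subunits. It read 10.95, 10.82, 11.03 and 11.01 in cKO mice 1 to 4 and 11.33, 11.50, 11.46 and 11.48 in controls 1 to 4. The groups were well separated, and the difference was -0.49 (SE 0.06, adjusted p = 0.00434). Leaving out cKO 1 or cKO 2 kept the call by limma, and the adjusted p was 0.0125 and 0.013 without cKO 3 and 4 and 0.0119, 0.0151, 0.0157 and 0.018 without controls 1 to 4. It was 0.073 against Lhx2fl/+ controls alone and 0.0487 against 123Cre:Lhx2fl/+ controls alone, and 0.0454 by the methods' t-test.

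Neither limma nor the methods' t-test called any of 16 calcium channel partners. At an unadjusted p under 0.05 limma had 3 lower and 1 higher, and the methods' t-test 4 lower and 1 higher. By limma 9.87% of all genes were lower and 5.13% higher at that level. Among these partners the lowest p by limma was that of Gem, a small GTPase that holds calcium channels back (-0.26, adjusted p = 0.0734). Next came Cabp4, a calcium-binding regulator of Cacna1f channels in photoreceptors (-0.22, adjusted p = 0.152). Among 6 AMPA receptor genes 0 passed, also at an unadjusted p under 0.05 (0 genes), with Cnih2 at 0.11 and Gria1 at 0.52, or 0.14 without cKO 4. Of 4 genes of the NALCN sodium leak channel 0 passed at either level, with Unc79 at -0.18 and Nalcn at 0.17. Of 10 other voltage-gated cation channels 0 passed, with 1 lower at an unadjusted p under 0.05, the pacemaker channel Hcn4 (-0.31, adjusted p = 0.0886), beside Hcn2 at -0.12.

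Lists for other cell types were also read. Their means differed by 0.05 for sustentacular cells, 0.12 for microvillous cells, 0.10 for skeletal muscle, -0.05 for smooth muscle and pericytes, 0.02 for endothelium, 0.08 for ensheathing and Schwann glia, -0.18 for respiratory ciliated cells and 0.04 for macrophages. In these 8 lists limma called 0 genes at 0.01, and so did the methods' t-test. By limma 4 of 8 ciliated cell markers were lower at an unadjusted p under 0.05, where 9.87% of all genes were. At that level 2 of 8 microvillous and 2 of 16 skeletal muscle markers were higher, where 5.13% of all genes were. At an adjusted p under 0.05, 1 ciliated cell marker was lower, Dnah11 (-0.62, adjusted p = 0.0166 by limma).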

How the data were processed

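Olfactory mucosa of 8 mice was measured on Affymetrix whole-transcript arrays (Mouse Gene 1.0 ST). The deposited log2 values, made by the authors with Affymetrix Expression Console according to the submitters' notes on processing, cover 28312 transcript clusters, each a summary over the exons of a gene. Version, background correction, summarization and any normalization between arrays: not given in the sources used here. Background signal under each value compresses changes of dim genes, and 11 of the 35 members had a mean under the lower quartile of all genes (log2 7.52).

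Clusters were named from the platform annotation (21759 with 1 symbol, 1605 with several, 4948 with none) and Entrez identifiers were matched to RefSeq GRCm38.p6. For genes with several clusters the one with the highest mean was kept. Gene tests used limma 3.58.1 in R 4.3.3 (lmFit and eBayes, two-sided, 4 arrays against 4) with Benjamini-Hochberg adjustment over 19928 genes, and the median standard error was 0.07. The script was tested on simulated data. Adjusted p-values without a named tool come from that fit. The study's methods name t-tests on values normalized to the number of mature OSNs. Plain t-tests on the deposited values, without that normalization, were run as an alternative and are called the methods' t-test here. Other alternatives were quantile normalization, centring on genes that encode no chemoreceptor, other rules for clusters and dim genes, array weights, trended and robust moderation, the title letter as a block, each control genotype alone and each array left out.

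Members and lists were chosen with earlier results of these data known, and members are described by counts. Genes given in full were every member past an adjusted p under 0.05, the 2 members of each class with the smallest p, the 4 largest differences, and members known in OSNs or muscle. Other members were added after their values were seen, so that each is accounted for, and so was Stmn4. Replicate numbers follow accession order. By the study's methods, litters that gave cKO mice gave controls too, so cKO and control mice shared litters. No source used here says which mice were littermates, so litter entered no fit, and p-values measure the spread between these mice.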

Additional observations from a re-analysis of the deposited data

Results flagged for a closer look

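In groups of 4 arrays, a single array lay far from the other 3 in 8 of 76 groups checked, where chance flags about 5%. Mouse cKO 2 was such an array in 4 of them. It read 11.90 for Scn9a, against 12.19 to 12.23 in the other cKO mice, and 10.04 for Cacna1d, against 10.16 to 10.17. It also read 12.55 for Lhx2, against 13.01 to 13.03, and 11.997 for Omp, against 12.59 to 12.68. Control 2 was such an array for 3 calcium channel genes. It read 10.50 for Cacna1h, against 10.76 to 10.77 in the other controls, 8.91 for Cacna1e, against 9.31 to 9.35, and 7.30 for Cacna1i, against 7.15 to 7.16. Control 3 had a mean of 8.95 over the T-type alpha1 genes, against 9.08 to 9.10 in the other controls.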

How the results depend on the processing

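The count of channel genes that rose, 1, was 2 at an unadjusted p under 0.01 (Cacng5 and Scn2b). It was 0 by the methods' t-test, 0 after centring on genes that encode no chemoreceptor, 0 against either control genotype alone, and 0 when clusters that name several genes were added, an alternative chosen after seeing the data. Leaving out 1 array gave 0 to 1, with 1 only without cKO 2. The count that fell, 0, was 4 with the adjusted threshold at 0.05 (against 5.17% of all genes) and 7 with an unadjusted threshold of 0.01. It was 3 with the title letter as a fixed block (Cacna1h, Cacna2d1 and Scn9a), 1 with a trended and robust fit (Cacna2d1), and 1 (Scn9a) with every cluster kept, with the mean over clusters or with array weights. It was 0 without any single array. The share of all genes is not given here for the unadjusted threshold, the block, the trended fit, the cluster rules or the array weights. Within letter B, where cKO 2 is the only cKO array, class means differed by -0.115 for alpha2delta, -0.079 for gamma and -0.295 for sodium channel beta subunits. Without dim genes, which leaves fewer genes per class, they differed by -0.189 for L-type, -0.176 for T-type, -0.262 for sodium channel alpha and -0.357 for sodium channel beta subunits. With 1 array left out in turn, 12 of 35 members changed sign at least once, 5 of them without cKO 4, and none of the 12 was past an adjusted p of 0.05 (a count chosen after seeing the data). Among the members given in full, differences near 0 changed sign for Cacnb2 (-0.044 against Lhx2fl/+ controls), Cacnb4 (0.004 after quantile normalization, -0.145 to 0.008 with 1 array left out) and Cacng1 (-0.002 to 0.082 with 1 array left out). The cause of these changes was not tested. No paired analysis was possible because replicate numbers follow accession order and the labels pair no mice. With 4 arrays a group and 11 members under the lower quartile of gene means, small changes of dim genes could not be resolved.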

Other observations

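Clusters whose probes name several sodium channel genes entered no gene's value. The cluster naming Scn2a, Scn9a and Scn3a read 9.57, 9.52, 9.61 and 9.86 in cKO mice 1 to 4 and 10.29, 9.85, 10.39 and 10.25 in controls 1 to 4, a difference of -0.55 (adjusted p = 0.037 by limma over 23364 clusters). The cluster naming Scn9a and Scn3a differed by -0.43 (adjusted p = 0.0538) and the cluster naming Scn3a and Scn1a by -0.20 (adjusted p = 0.294). Which of the named genes gave these signals cannot be told apart.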
